A study of Homo sapiens with 12 samples.

Results

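The RNA of 10 genes for fork remodelers and DNA helicases was followed through 12 libraries of a leukemia line. The genes were chosen by name: SMARCAL1, ZRANB3, HLTF, PIF1, BLM, WRN, RECQL, RECQL4, RECQL5 and HELB. All 10 were found among the 44147 features of the files and passed the filter on low counts, as did 23045 genes in all. The cells were CCRF-CEM, an established T lymphoblast leukemia line, used as the wild-type parent line and as 1 line derived from it in which SLFN11 was knocked out, a gene whose protein acts at stressed replication forks. The labels do not say whether the knockout line is 1 clone, and they give no other allele. Each line was cultured with prexasertib, a CHK1 inhibitor, at 100 nM for 6 h, or with its solvent DMSO, for which the labels give no time. Each of the 4 combinations of line and treatment had 3 libraries. Separate cultures are not stated for them, and the spread behind each p-value may therefore be only technical.

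When a replication fork stalls, its new strands can be peeled back and annealed to each other, a process called fork reversal. SMARCAL1, ZRANB3 and HLTF are ATP-driven DNA translocases of the SNF2 family that catalyse it. The RecQ helicases (BLM, WRN, RECQL, RECQL4 and RECQL5) unwind forked and branched DNA from 3′ to 5′, and loss of BLM, WRN or RECQL4 causes the Bloom, Werner and Rothmund-Thomson syndromes. PIF1 and HELB unwind DNA from 5′ to 3′: PIF1 resolves G-quadruplex structures and helps break-induced replication, and HELB limits the resection of DNA ends. CHK1 is a checkpoint kinase that holds back entry into mitosis and the firing of replication origins, so its inhibition stresses replication.

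The treatment labels and the library names conflict. In 12 of 12 records the title carries the name of a library whose file is attached to the opposite treatment in that line. Groups here follow the record to which a file is attached and are written as labelled prexasertib and labelled DMSO. Were the library names correct instead, every treatment difference given here, and its difference between the lines, would have the opposite sign, and the 2 comparisons of the lines would trade places. Exonic reads per library lay between 47887791 and 77548202. All 10 T lymphoblast markers checked were read at a mean of at least 1 CPM (read counts scaled to library size with edgeR's TMM factors) in every group, with sums of 1374 to 1783 CPM per library. Myeloid and erythroid markers summed to at most 1.67 and 0.808 CPM in a library, 2 of 5 B-cell markers (CD79A and CD79B) reached 1 CPM with the list at 25.1 to 43.7 CPM, and 2 of 8 epithelial and fibroblast markers (EPCAM and KRT8) did, with that list at 2.97 to 4.503 CPM in parent and 11.3 to 12.96 CPM in knockout libraries. The part of these other markers in the results was not tested. SLFN11 itself was still read in the knockout libraries, at 65.9 to 90.7 CPM against 91.2 to 119 CPM in the parent libraries. Knockout less parent on the log2 scale was -0.51 (SE 0.05, edgeR adjusted p = 6.0e-09) in labelled DMSO and -0.41 (SE 0.05, edgeR adjusted p = 5.5e-07) in labelled prexasertib. The introns of SLFN11 went the other way and were higher in the knockout, by 0.37 (SE 0.07, edgeR adjusted p = 4.1e-04) and 0.61 (SE 0.07, edgeR adjusted p = 1.2e-06) under the same labels. The parent library labelled prexasertib, replicate 1, stands apart: introns took 30.3% of its gene reads, against 26.4 and 25.9% in the other libraries of its group and 23.9 to 26.0% in the other groups.

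In parent cells, PIF1 was by far the member that differed most between the treatments, with 6.31-fold less exonic RNA in labelled prexasertib than in labelled DMSO, while the other 9 differed by at most 1.33-fold. BLM, WRN and RECQL4 were higher, and PIF1, ZRANB3, RECQL5 and HELB were lower. The RecQ family was thus split, with RECQL5 lower and RECQL not called. The call rule was an adjusted p of at most 0.05 in edgeR's quasi-likelihood test over all 23045 genes, which called 18.2% of all genes higher and 18.2% lower. So 3 of 10 members were higher and 4 of 10 lower, and the groups did not overlap for 7 of 10 members, as for 43.3% of all genes. The members' median log2 fold change was -0.01 and that of all genes 0.04. In RNA of whole cultures, fewer cells of a state and less RNA per cell cannot be told apart. Deposited TPM values (abundance scaled by gene length) were tested as log2(TPM + 1), which makes the differences of genes at a few TPM smaller. On that scale the same contrast called 6364 genes higher and 2505 lower in place of 4183 and 4191. It called 4 members higher and 2 lower.

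In SLFN11-knockout cells PIF1 was again far lower in labelled prexasertib, by 5.24-fold, and most other members did not pass the test. BLM was higher and PIF1 and RECQL5 were lower, 1 and 2 of 10 members, where 6.11% of all genes were called higher and 6.83% lower. The groups did not overlap for 5 of 10 members and for 34.3% of all genes. The median log2 fold change was 0.06 over the members and -0.00 over all genes. Both treatment contrasts use different libraries, but the difference between them was tested itself: the parent effect minus the knockout effect was called for 0 members higher and 2 lower (ZRANB3 and PIF1), with 7.32% of all genes called higher and 9.53% lower.

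Comparisons between the lines use the same libraries as those between the treatments. Between the lines, HELB and PIF1 were lower in knockout cells under both treatment labels, HELB by 1.87-fold and 1.68-fold. In labelled DMSO, WRN, SMARCAL1 and RECQL were higher in the knockout, so that 3 of 10 members were higher and 2 lower, where 19.6% of all genes were called higher and 20.4% lower. In labelled prexasertib ZRANB3, RECQL and BLM were higher, again 3 of 10, and HELB and PIF1 lower, where 14.5% of all genes were called higher and 13.5% lower. The groups did not overlap for 7 of 10 members in the first comparison, with 53.6% of all genes, and for 6 of 10 in the second, with 38.1% of all genes. On the TPM scale the median of all genes moved to 0.15 in the first comparison, from -0.01, and 9197 genes were called higher and 1833 lower in place of 4515 and 4697. In the second the calls were 6358 and 1327 in place of 3349 and 3118, and for the interaction 2905 and 1128 in place of 1686 and 2197.

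**Figure D1:**
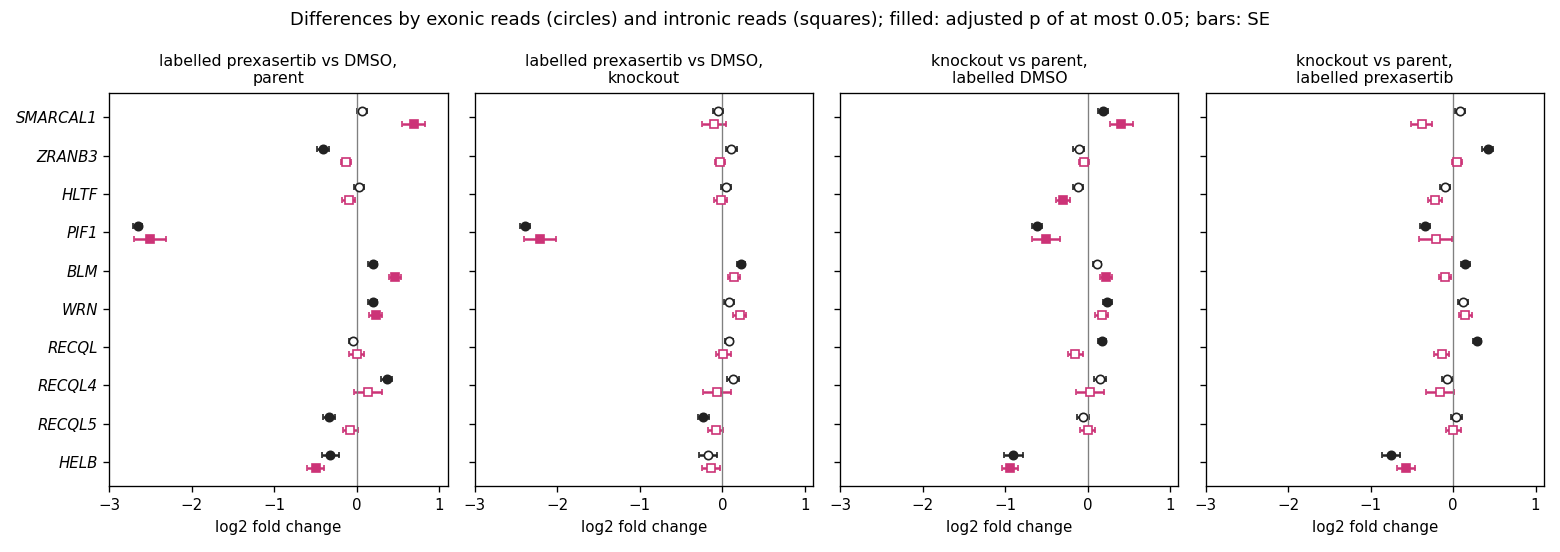
Log2 fold change of each member (x axis) in the 4 comparisons, with circles for exonic and squares for intronic reads, bars for the SE and filled symbols for an adjusted p of at most 0.05. PIF1 lies near -2.7 to -2.2 in both treatment comparisons on both kinds of read, and all other points lie between -1.0 and 0.8.

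PIF1 lies on chromosome 15 from 65107831 to 65117867 in hg19, with no other listed gene overlapping it. Its exons had 123, 133 and 127 CPM in parent libraries labelled DMSO, and in those labelled prexasertib 19.2, 20.99 and 20.4 CPM. In knockout cells there were 83.4, 82.2 and 84.6 CPM under the DMSO label, and 17.1, 16.1 and 14.6 CPM under the prexasertib label. The 4 groups form 4 separate ranges, with every parent library above every knockout library of its treatment label. The means were 128 ± 4.96, 20.2 ± 0.892, 83.4 ± 1.19 and 15.9 ± 1.25 CPM in that order (SD, n = 3 each). The log2 fold change of labelled prexasertib against labelled DMSO was -2.66 (SE 0.06, edgeR adjusted p = 3.1e-21) in parent cells and -2.39 (SE 0.06, edgeR adjusted p = 1.4e-19) in knockout cells. PIF1 had the smallest p of all 23045 genes in knockout cells and ranked 3rd by p in parent cells. By log2 fold change, lowest first, it ranked 47th in knockout and 105th in parent cells. On intronic reads its rank by p was 129 in knockout and 361 in parent cells. A change of at least 2-fold was called for 4.47% of all genes in parent and 0.929% in knockout cells. Knockout against parent gave -0.61 (SE 0.06, edgeR adjusted p = 1.2e-09) in labelled DMSO and -0.34 (SE 0.06, edgeR adjusted p = 1.0e-04) in labelled prexasertib. On TPM values, where more of all genes were called higher in the knockout, these line differences were smaller. They were -0.32 (limma adjusted p = 1.2e-04) and -0.16 (limma adjusted p = 0.017).

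The line-by-treatment interaction of PIF1 was small beside the effect itself, at -0.27 (SE 0.08, edgeR adjusted p = 0.023). That call was lost without the parent library labelled DMSO, replicate 3 (-0.28, adjusted p = 0.051), without the knockout library labelled prexasertib, replicate 1 (-0.22, adjusted p = 0.11), and on TPM values (-0.16, adjusted p = 0.11). Introns of PIF1, whose reads come mostly from unspliced RNA, had 81.1, 94.8 and 92.7 CPM in parent labelled DMSO, 9.87, 18.5 and 19.3 in parent labelled prexasertib, 62.8, 62.1 and 63.3 in knockout labelled DMSO, and 15.1, 14.6 and 11.03 in knockout labelled prexasertib. Intronic CPM is scaled to a library's intronic reads and exonic CPM to its exonic reads, so their sizes cannot be compared. Both treatment comparisons had no overlap on introns, and the lowest value was that of parent labelled prexasertib, replicate 1. The intronic log2 fold change was -2.51 (SE 0.19, edgeR adjusted p = 1.9e-07) in parent and -2.21 (SE 0.19, edgeR adjusted p = 3.1e-06) in knockout cells. Without that replicate the parent value was -2.24. The intronic interaction did not pass the test, at -0.30 (SE 0.26, edgeR adjusted p = 0.52), and was -0.03 (adjusted p = 0.90) without that replicate. The share of PIF1 reads in introns was 17.97 to 25.0% over all 12 libraries.

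The promoter of PIF1 is shown because 2 of the genes whose RNA was most like that of PIF1 carry the same short letters, and those of BLM and HELB because they moved otherwise. Each is the run of 250 bases before the annotated transcription start, 5′ to 3′ along the gene's strand, from RefSeq's annotation of GRCh38.p14, a build other than that of the files. A single window was found for 6 of 10 members: HLTF, PIF1, BLM, RECQL, RECQL5 and HELB. Capitals mark TTTGAA or TTTAAA (the cell cycle genes homology region, bound by the DREAM and MuvB complexes that control genes of G2 and mitosis) and CCAAT (the CCAAT box, bound by NF-Y), each on either strand, so that CCAAT on the other strand reads ATTGG and TTTGAA reads TTCAAA. The E2F letters TTTCCCGC and TTTGGCGC were searched on both strands too. No 2 of the matches shown overlap. SPAG5, also among the genes most like PIF1, had a single window with none of these letters, and it is not shown.
PIF1 (chr15:64825648-64825897, minus strand): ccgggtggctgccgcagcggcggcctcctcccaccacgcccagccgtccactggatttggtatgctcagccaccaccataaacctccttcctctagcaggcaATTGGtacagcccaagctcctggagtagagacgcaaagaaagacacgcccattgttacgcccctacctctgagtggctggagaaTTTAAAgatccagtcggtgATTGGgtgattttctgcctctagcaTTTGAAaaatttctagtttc
PLK1 (chr16:23678639-23678888, plus strand): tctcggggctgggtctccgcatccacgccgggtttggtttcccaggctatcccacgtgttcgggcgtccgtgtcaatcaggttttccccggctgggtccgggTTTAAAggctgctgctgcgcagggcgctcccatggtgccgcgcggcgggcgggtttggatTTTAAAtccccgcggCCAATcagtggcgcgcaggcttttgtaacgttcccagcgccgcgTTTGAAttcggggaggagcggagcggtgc
CDC20 (chr1:43358731-43358980, plus strand): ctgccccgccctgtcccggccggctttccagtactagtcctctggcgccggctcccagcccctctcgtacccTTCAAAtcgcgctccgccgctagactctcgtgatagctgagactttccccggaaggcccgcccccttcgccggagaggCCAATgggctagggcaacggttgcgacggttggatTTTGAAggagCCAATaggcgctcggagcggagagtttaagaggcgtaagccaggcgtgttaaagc
BLM (chr15:90717096-90717345, plus strand): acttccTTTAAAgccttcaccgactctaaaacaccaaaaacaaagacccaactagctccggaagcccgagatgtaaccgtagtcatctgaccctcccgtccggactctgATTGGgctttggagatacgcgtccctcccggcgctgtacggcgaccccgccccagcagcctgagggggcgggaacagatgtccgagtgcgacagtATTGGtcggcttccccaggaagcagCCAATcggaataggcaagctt
HELB (chr12:66302243-66302492, plus strand): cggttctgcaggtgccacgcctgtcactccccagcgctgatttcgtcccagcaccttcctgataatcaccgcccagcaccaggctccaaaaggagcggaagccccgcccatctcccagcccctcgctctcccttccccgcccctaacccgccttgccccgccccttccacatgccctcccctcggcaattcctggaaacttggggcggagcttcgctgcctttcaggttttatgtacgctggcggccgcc

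PIF1 holds TTTGAA 20 bases and TTTAAA 64 bases before its start (counted to the first base of the match), and CCAAT on the other strand 148 and 45 bases before it. Of the 35116 promoter windows of this length, 13.3% hold TTTGAA, 11.3% TTTAAA, 21.9% either of them, and 32% CCAAT. Among the 6 members with a window, 3 held TTTGAA or TTTAAA (HLTF, PIF1 and BLM) and 5 held CCAAT, so these letters are shared by members that moved differently. HELB held none of the letters searched. HLTF alone of the 6 held an E2F match, TTTCCCGC, found in 1.39% of all windows (TTTGGCGC in 0.55%). These matches are descriptions of the letters and not of binding.

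Over the 12 libraries, the genes with RNA most like that of PIF1 were PLK1 (Pearson r of log2 CPM 0.998), SPAG5 (0.997), CDC20 (0.996), ARL6IP1 (0.996) and FAM64A (0.995). They were sought among 11149 genes whose mean log2 CPM reached 1 and whose symbol RefSeq lists as protein-coding or long non-coding RNA. Symbols starting with LOC, LINC, MIR or SNOR were left out. The points share libraries and the 2 treatment labels, so that r mostly follows the treatment difference. PLK1 is a mitotic kinase, CDC20 activates the anaphase-promoting complex, and SPAG5 is a protein of the mitotic spindle. PLK1 averaged 334, 101, 251 and 80.1 CPM in parent labelled DMSO, parent labelled prexasertib, knockout labelled DMSO and knockout labelled prexasertib. CDC20 averaged 585, 178, 479 and 165 CPM in that order. All 5 genes were lower in labelled prexasertib in both lines, by log2 fold changes of -1.73 to -0.76 in parent and -1.65 to -0.62 in knockout cells, less than PIF1. The 3 of these 5 genes with a single promoter window were PLK1, SPAG5 and CDC20, and PLK1 and CDC20 held both TTTGAA or TTTAAA and CCAAT, while SPAG5 held neither.

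**Figure D2:**
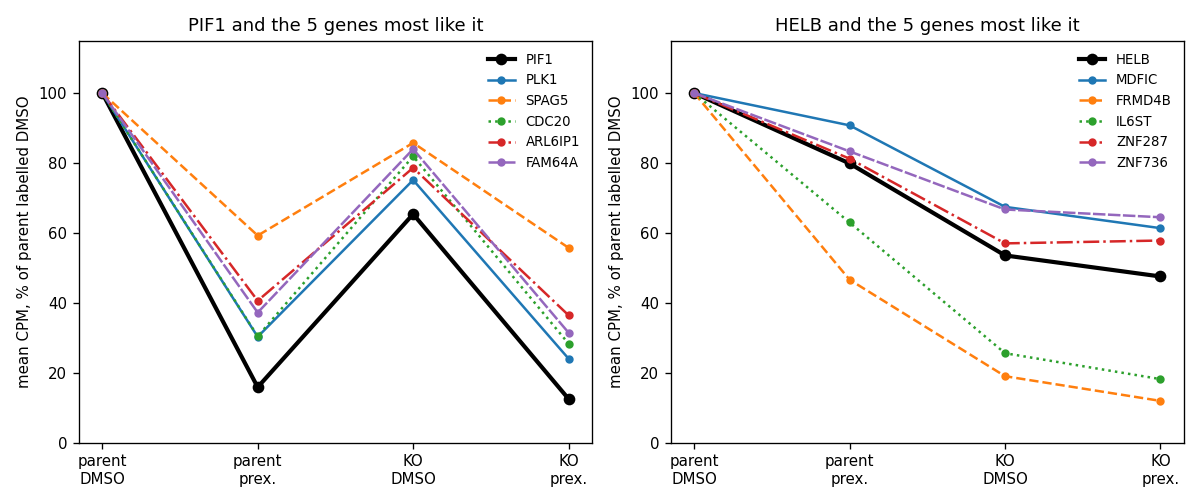
Mean CPM of PIF1 (left) and HELB (right) and of the 5 genes most like each, as a percent of the mean in parent cells labelled DMSO, in the 4 groups on the x axis, with lines joining the values of 1 gene. The PIF1 panel falls and rises with the treatment label in both lines. The HELB panel steps down between the lines, and its FRMD4B and IL6ST also fall in labelled prexasertib in both lines (log2 fold changes of -1.10 and -0.66 in parent cells).

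HELB lies on chromosome 12 from 66696325 to 66737423 in hg19 and overlaps no other listed gene. Its exons had 10.9, 9.08 and 10.4 CPM in parent labelled DMSO, 8.09, 8.18 and 8.02 in parent labelled prexasertib, 4.82, 5.68 and 5.78 in knockout labelled DMSO, and 4.18, 5.22 and 5.05 in knockout labelled prexasertib. Every parent library stood above every knockout library. Knockout against parent gave a log2 fold change of -0.90 (SE 0.11, edgeR adjusted p = 1.1e-07) in labelled DMSO and -0.75 (SE 0.11, edgeR adjusted p = 7.7e-06) in labelled prexasertib. Between the treatments, the difference in parent cells was -0.32 (SE 0.10, edgeR adjusted p = 0.016), lost without the parent library labelled DMSO, replicate 3 (-0.31, adjusted p = 0.055) and on TPM values (-0.12, adjusted p = 0.29). In knockout cells it was -0.17 (SE 0.11, edgeR adjusted p = 0.37), and the difference of the 2 was -0.16 (SE 0.15, edgeR adjusted p = 0.55). HELB averaged 2.33 and 2.045 TPM in parent cells under the DMSO and prexasertib labels. At such levels the 1 added to TPM before the log makes a difference smaller.

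Introns held 52.3 to 57.9% of HELB reads and showed the same step between the lines. They had 36.0 to 38.3 CPM in parent labelled DMSO, 25.2 to 28.9 in parent labelled prexasertib, 17.8 to 22.2 in knockout labelled DMSO and 16.5 to 19.7 in knockout labelled prexasertib. Intronic RNA of the knockout against the parent differed by -0.94 (SE 0.10, edgeR adjusted p = 4.7e-07) and -0.57 (SE 0.11, edgeR adjusted p = 4.8e-04) under the 2 labels. In parent cells the introns differed by -0.50 between treatments (SE 0.10, edgeR adjusted p = 6.9e-04). The genes with RNA most like that of HELB over the 12 libraries were MDFIC (r 0.979), FRMD4B (0.973), IL6ST (0.972), ZNF287 (0.967) and ZNF736 (0.966). IL6ST, the signalling subunit of the interleukin-6 receptor family, had means of 6.37 (parent) and 1.63 CPM (knockout) under the DMSO label. Under the prexasertib label its means were 4.01 (parent) and 1.16 CPM (knockout).

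Of the fork remodelers, ZRANB3, which binds ubiquitinated PCNA, differed most in exons. It lies on chromosome 2 from 135894486 to 136288806 in hg19 and overlaps RAB3GAP1 and AC064850.4. Parent libraries had 29.4, 26.1 and 27.4 CPM when labelled DMSO and 20.7, 20.5 and 21.1 when labelled prexasertib. The knockout had 25.0, 25.2 and 26.9 CPM when labelled DMSO and 28.5, 25.2 and 29.5 when labelled prexasertib. Only the parent libraries labelled prexasertib lay apart, below all 9 others. The log2 fold change between treatments was -0.41 (SE 0.07, edgeR adjusted p = 1.6e-05) in parent and 0.11 (SE 0.07, edgeR adjusted p = 0.33) in knockout cells. The difference of the 2 was -0.52 (SE 0.09, edgeR adjusted p = 2.3e-04), and knockout against parent in labelled prexasertib gave 0.42 (SE 0.07, edgeR adjusted p = 2.9e-05).

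Introns held most ZRANB3 reads, 71.5 to 81.3% over the 12 libraries. They had 219 to 236 CPM in parent labelled DMSO and 201 to 211 CPM in parent labelled prexasertib, a log2 fold change of -0.13 (SE 0.06, edgeR adjusted p = 0.12) that was called without parent labelled prexasertib, replicate 1 (-0.15, adjusted p = 0.029). The intronic interaction was -0.10 (SE 0.09, edgeR adjusted p = 0.53). With exonic and intronic reads counted together, the 3 exonic calls were lost: the parent difference was -0.11 (adjusted p = 0.16), the interaction -0.11 (adjusted p = 0.46) and the line difference in labelled prexasertib 0.08 (adjusted p = 0.34). On TPM values, where the added 1 makes differences of low genes smaller, the interaction was -0.30 (limma adjusted p = 0.064). Restricted to reads outside other genes, the exonic values stayed as large, at -0.47 (adjusted p = 1.1e-05) in parent cells and -0.61 (adjusted p = 9.2e-05) for the interaction.

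SMARCAL1, the remodeler that binds the single-strand DNA coat protein RPA, was called between the treatments in parent cells on introns and not on exons. It lies on chromosome 2 from 217277137 to 217347776 in hg19 and overlaps AC098820.2, AC098820.3 and AC098820.4. Its exons had 21.6 to 23.7, 22.2 to 24.5, 24.5 to 26.7 and 24.2 to 25.9 CPM in parent labelled DMSO, parent labelled prexasertib, knockout labelled DMSO and knockout labelled prexasertib. Exonic treatment differences were 0.06 (SE 0.06, edgeR adjusted p = 0.49) in parent and -0.05 (SE 0.06, edgeR adjusted p = 0.72) in knockout cells. The parent difference was called with intronic reads added (0.29, adjusted p = 0.011) and on TPM values (0.17, limma adjusted p = 0.032). Parent labelled DMSO, replicate 1, had 1522 exonic and 756 intronic reads of SMARCAL1, and the CPM of each kind is scaled to that kind alone. Its introns had 31.0, 27.4 and 33.7 CPM in parent labelled DMSO and 65.6, 39.7 and 42.9 in parent labelled prexasertib. Knockout introns had 41.5, 40.2 and 41.0 CPM when labelled DMSO and 39.3, 37.6 and 37.5 when labelled prexasertib. The parent libraries labelled DMSO lay below all others, and 1 library, parent labelled prexasertib, replicate 1, lay far above.

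For the introns of SMARCAL1 the treatment difference in parent cells was 0.69 (SE 0.14, edgeR adjusted p = 6.5e-04), and the interaction with the line 0.79 (SE 0.19, edgeR adjusted p = 0.013). Without parent labelled prexasertib, replicate 1, these were 0.43 (adjusted p = 6.5e-05) and 0.53 (adjusted p = 6.5e-04). Knockout against parent in labelled DMSO gave 0.41 in introns (SE 0.14, edgeR adjusted p = 0.027) and 0.19 in exons (SE 0.06, edgeR adjusted p = 0.020). In labelled prexasertib the exonic line difference of 0.08 (SE 0.06, edgeR adjusted p = 0.42) was called on TPM values (0.19, limma adjusted p = 0.020). On that scale more of all genes were called higher in the knockout too. The exonic call in labelled DMSO was lost without parent labelled DMSO replicate 1 (0.13) or 2 (0.17) and without knockout labelled DMSO replicate 1 (0.15) or 2 (0.14), at adjusted p of 0.07 to 0.16. The intronic call was lost without parent labelled DMSO replicate 1 (0.43) or 2 (0.35) and without knockout labelled DMSO replicate 1 (0.41), 2 (0.43) or 3 (0.42), at adjusted p of 0.052 to 0.12. Without parent labelled prexasertib, replicate 1, a library outside this comparison, the intronic value was 0.42 (edgeR adjusted p = 1.2e-05). Introns held 27.5 to 53.4% of SMARCAL1 reads.

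HLTF, a remodeler that is also a ubiquitin ligase for PCNA, was the steadiest member in exons. It lies on chromosome 3 from 148747914 to 148804341 in hg19, with no overlapping gene listed, and had 143 to 175 CPM over the 12 libraries. None of its 5 exonic tests passed, with log2 fold changes between -0.12 and 0.05. In labelled DMSO, HLTF was called lower in the knockout with reads outside other genes (-0.14, edgeR adjusted p = 0.04). A fit to only the 2 groups compared called it too (-0.11, edgeR adjusted p = 0.014). Without parent labelled prexasertib, replicate 1, HLTF was called lower in the knockout in labelled DMSO (-0.14, adjusted p = 0.0016) and in labelled prexasertib (-0.18, adjusted p = 9.3e-04). Its introns were lower in knockout than in parent cells labelled DMSO, at 80.7 to 85.9 against 93.0 to 116 CPM, a log2 fold change of -0.30 (SE 0.08, edgeR adjusted p = 0.0059). That call was lost without parent labelled DMSO, replicate 1 (-0.19, adjusted p = 0.051).

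**Figure D3:**
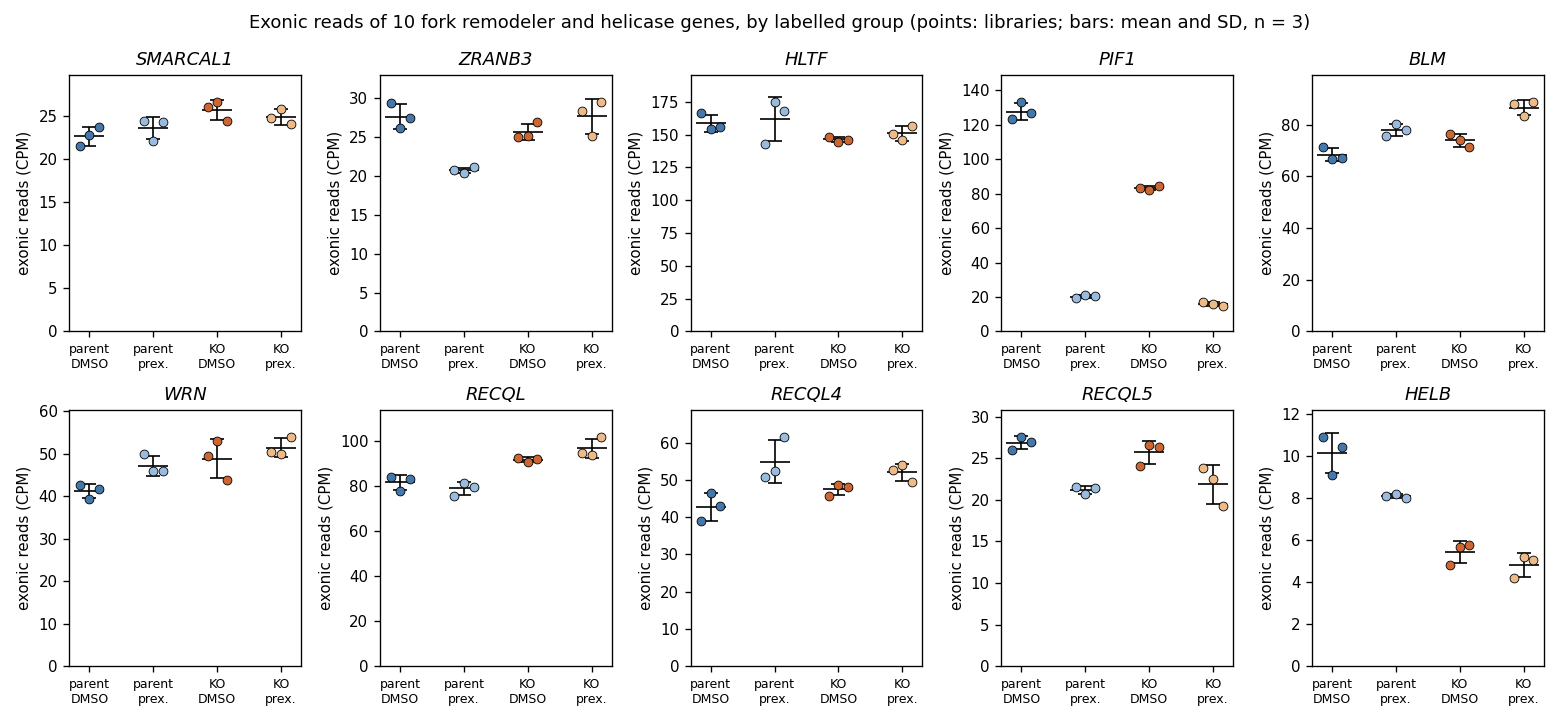
Exonic reads in CPM (y axis, from 0) of the 10 members in each library, by line and treatment label (x axis), with points for libraries and bars for the mean and SD of 3. PIF1 separates by treatment label in both lines, HELB separates by line, and in ZRANB3 the parent libraries labelled prexasertib lie lowest.

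Among the RecQ helicases, BLM was higher in labelled prexasertib in both lines. BLM, which dissolves double Holliday junctions with TOP3A and RMI proteins, lies on chromosome 15 from 91260558 to 91358859 in hg19 and overlaps SNORD18. Parent libraries had 71.5, 66.7 and 67.3 CPM when labelled DMSO and 75.8, 80.5 and 77.9 when labelled prexasertib. The knockout had 76.4, 74.1 and 71.6 CPM when labelled DMSO and 88.1, 83.3 and 88.7 when labelled prexasertib. The treatment groups did not overlap in either line. The log2 fold change was 0.19 (SE 0.05, edgeR adjusted p = 0.0044) in parent and 0.23 (SE 0.05, edgeR adjusted p = 0.0029) in knockout cells, and the difference of the 2 was -0.04 (SE 0.07, edgeR adjusted p = 0.79). The parent call was lost without parent labelled DMSO, replicate 2 (0.13, adjusted p = 0.087).

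The introns of BLM had 68.0, 58.6 and 62.9 CPM in parent labelled DMSO, 93.0, 82.7 and 85.5 in parent labelled prexasertib, 74.4, 72.6 and 74.2 in knockout labelled DMSO, and 81.4, 80.6 and 81.7 in knockout labelled prexasertib. The parent groups lay at the 2 ends, with both knockout groups between them. The intronic difference was 0.46 (SE 0.07, edgeR adjusted p = 4.4e-05) in parent and 0.14 (SE 0.07, edgeR adjusted p = 0.24) in knockout cells. The difference between these was 0.32 (SE 0.10, edgeR adjusted p = 0.049), and that call was lost in 8 of 12 fits that left out 1 library, with values of 0.29 to 0.35 in those 8. The 8 were the fits without parent labelled DMSO replicate 2 or 3 and without any 1 of the 6 knockout libraries. Without parent labelled prexasertib, replicate 1, the intronic interaction was 0.27 (edgeR adjusted p = 0.028). In labelled DMSO the introns of the knockout exceeded those of the parent by 0.22 (SE 0.07, edgeR adjusted p = 0.023), lost without parent labelled DMSO replicate 2 (0.18) or 3 (0.23) and without knockout labelled DMSO replicate 1 (0.22) or 3 (0.22), at adjusted p of 0.055 to 0.10. Without parent labelled prexasertib, replicate 1, this intronic value was 0.22 (edgeR adjusted p = 0.0019). In exons the knockout exceeded the parent by 0.15 (SE 0.05, edgeR adjusted p = 0.028) in labelled prexasertib, lost without parent labelled prexasertib, replicate 3 (0.15), without knockout labelled prexasertib, replicate 1 (0.14) or 3 (0.13), and with intronic reads added (0.10).

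RECQL4, the member of the family that takes part in the start of replication, had 39.0, 46.5 and 43.0 CPM in parent labelled DMSO and 50.7, 52.4 and 61.5 in parent labelled prexasertib. These did not overlap, and the log2 fold change was 0.36 (SE 0.07, edgeR adjusted p = 2.1e-04). Knockout cells had 45.7, 48.6 and 48.0 CPM when labelled DMSO and 52.5, 54.1 and 49.5 when labelled prexasertib, with a value of 0.13 (SE 0.07, edgeR adjusted p = 0.24). The interaction was 0.22 (SE 0.10, edgeR adjusted p = 0.13) and was called on TPM values (0.32, adjusted p = 0.024). RECQL4 overlaps CTD-2517M22.17 and had few intronic reads, 6.72 to 9.05% of its own.

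WRN, a helicase that also has exonuclease activity, had 39.5 to 42.7 CPM in parent labelled DMSO and 45.9 to 49.95 in parent labelled prexasertib, a log2 fold change of 0.19 (SE 0.06, edgeR adjusted p = 0.018). That call was lost without parent labelled DMSO, replicate 1 (0.18) or 2 (0.12), parent labelled prexasertib, replicate 1 (0.12), or knockout labelled DMSO, replicate 1 (0.15), at adjusted p of 0.06 to 0.23. In knockout cells WRN had 43.9 to 53.0 CPM when labelled DMSO and 49.99 to 53.9 when labelled prexasertib, with a value of 0.08 (SE 0.06, edgeR adjusted p = 0.51). In labelled DMSO the knockout exceeded the parent by 0.24 (SE 0.06, edgeR adjusted p = 0.0030), lost without knockout labelled DMSO, replicate 2 (0.15, adjusted p = 0.084). In labelled prexasertib it was 0.12 (SE 0.06, edgeR adjusted p = 0.15), called without parent labelled prexasertib, replicate 1 (0.17, adjusted p = 0.032). The introns of WRN differed by 0.23 between treatments in parent cells (SE 0.08, edgeR adjusted p = 0.024), lost without parent labelled DMSO, replicate 2 (0.16, adjusted p = 0.14).

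RECQL5, a RecQ helicase that binds RNA polymerase II, moved the other way to BLM. It lies on chromosome 17 from 73622925 to 73663269 in hg19 and overlaps MYO15B, SAP30BP, SMIM5 and SMIM6. Parent libraries had 26.0, 27.6 and 27.0 CPM when labelled DMSO and 21.5, 20.7 and 21.4 when labelled prexasertib, a log2 fold change of -0.34 (SE 0.07, edgeR adjusted p = 3.5e-04) that on TPM values was -0.15 (adjusted p = 0.091). The knockout had 24.1, 26.7 and 26.4 CPM when labelled DMSO and 23.8, 22.6 and 19.3 when labelled prexasertib, a value of -0.23 (SE 0.07, edgeR adjusted p = 0.027). The groups did not overlap in either line. The knockout call was lost without knockout labelled DMSO, replicate 2 (-0.20) or 3 (-0.21), without knockout labelled prexasertib, replicate 3 (-0.14), with intronic reads added (-0.19) and on TPM values (-0.17), at adjusted p of 0.06 to 0.22. Its introns did not pass the test in any of the 5 comparisons, and their log2 fold changes lay between -0.08 and 0.00.

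RECQL, the most abundant of the RecQ helicases here, was called between the lines and not between the treatments. It lies on chromosome 12 from 21621845 to 21654603 in hg19 and overlaps PYROXD1, so that only 62.0% of its exon bases lie outside other genes. Parent libraries had 77.9 to 83.9 CPM when labelled DMSO and 75.6 to 81.3 when labelled prexasertib, and knockout libraries 90.5 to 92.5 and 93.6 to 102. Every knockout library was above every parent library. The knockout exceeded the parent by 0.17 (SE 0.05, edgeR adjusted p = 0.0094) in labelled DMSO and 0.29 (SE 0.05, edgeR adjusted p = 8.4e-05) in labelled prexasertib. TPM values, on which more of all genes were called higher in the knockout, gave larger differences for RECQL. They were 0.43 (limma adjusted p = 8.4e-05) and 0.43 (limma adjusted p = 2.3e-04). With reads outside other genes they were 0.16 and 0.28 (adjusted p = 0.013 and 2.2e-04). The call in labelled DMSO was lost without parent labelled DMSO, replicate 2 (0.12), or knockout labelled DMSO, replicate 1 (0.14), and with intronic reads added (0.11), at adjusted p of 0.065 to 0.12. The introns of RECQL gave -0.15 (SE 0.09, edgeR adjusted p = 0.23) and -0.14 (SE 0.09, edgeR adjusted p = 0.30) for the same comparisons.

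Levels of different genes are compared on the deposited TPM values, which account for length. In parent cells labelled DMSO, PIF1 led at 28.5 ± 0.806 TPM (SD, n = 3), and its range overlapped that of HLTF at 27.5 ± 2.38. RECQL followed at 22.5 ± 1.70, BLM at 11.9 ± 0.986, RECQL4 at 10.5 ± 0.561, WRN at 7.65 ± 0.598 and SMARCAL1 at 4.64 ± 0.0945, with no overlap between neighbours. RECQL5 at 3.44 ± 0.0668 and ZRANB3 at 3.17 ± 0.327 overlapped, and HELB was lowest at 2.33 ± 0.299. PIF1 was the member whose place changed most. It stood 7th of 10 in parent labelled prexasertib at 4.99 ± 0.158 TPM, overlapping SMARCAL1, 3rd in knockout labelled DMSO at 22.6 ± 0.299, and 7th in knockout labelled prexasertib at 4.36 ± 0.268, overlapping ZRANB3. HELB was lowest in all 4 groups, at 1.35 ± 0.171 to 2.33 ± 0.299 TPM, and HLTF and RECQL were the 2 highest in the 3 groups other than parent labelled DMSO, with 24.0 to 32.7 TPM.

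**Figure D4:**
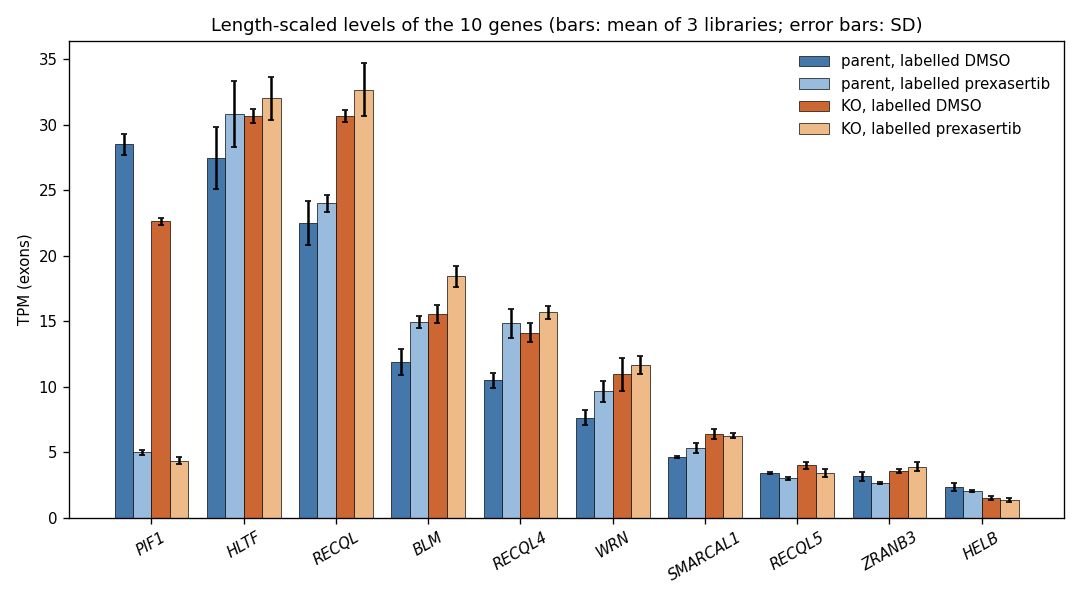
Mean TPM of exons (y axis, from 0) of the 10 members in the 4 groups, in order of their level in parent cells labelled DMSO, with error bars for the SD of 3 libraries. PIF1 is at 28.5 and 22.6 TPM in the groups labelled DMSO and at 4.99 and 4.36 TPM in those labelled prexasertib, and HELB is lowest in each group.

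The members did not vary as 1 block. The SD of the 4 group means of log2 CPM was 1.49 for PIF1 and 0.50 for HELB, and 0.06 (HLTF) to 0.19 (ZRANB3) for the other 8. Over the 12 libraries, Pearson's r of log2 CPM was 0.89 between PIF1 and RECQL5 and -0.88 between PIF1 and BLM, and -0.81 between HELB and RECQL. The 12 points share lines and treatment labels, and these values are descriptions.

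Other genes of the pathway were taken from 5 lists. The replicative helicase (MCM2 to MCM7, CDC45 and the GINS proteins, which unwinds the fork) had 7 of 11 genes higher and 1 lower in labelled prexasertib in parent cells, where 18.2% of all genes were called higher and 18.2% lower. Its median was 0.20 and that of all genes 0.04. In knockout cells 2 were higher and none of the 11 lower, with a median of 0.07, beside 6.11% of all genes higher and 6.83% lower. Between the lines 6 were higher and 1 lower in the knockout in labelled DMSO (19.6 and 20.4% of all genes), and 4 higher in labelled prexasertib (14.5% of all genes). MCM3 had parent means of 254 and 314 CPM under the DMSO and prexasertib labels (log2 fold change 0.31, SE 0.05, edgeR adjusted p = 8.8e-06), and for the interaction GINS3 was lower (-0.38, SE 0.09, edgeR adjusted p = 0.0042) and GINS2 higher (0.28, SE 0.08, edgeR adjusted p = 0.0091), with 9.53% of all genes lower and 7.32% higher.

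Of 16 other repair and fork helicases, 1 was higher (ASCC3) and 5 lower (HELQ, POLQ, BRIP1, FANCM and C4orf21, the files' symbol for ZGRF1) in parent cells labelled prexasertib, with a median of -0.05 (18.2% of all genes higher and 18.2% lower). HELQ, a 3′ to 5′ helicase of repair, averaged 33.2 and 17.2 CPM, a log2 fold change of -0.95 (SE 0.07, edgeR adjusted p = 3.5e-11), and POLQ, the polymerase of theta-mediated end joining, 122 and 91.6 CPM (-0.42, SE 0.05, edgeR adjusted p = 7.3e-07). In knockout cells 3 were higher (DNA2, ASCC3 and MCM8) and HELQ was lower, beside 6.11 and 6.83% of all genes. The effect was more negative in parent than in knockout cells for HELQ (-0.69, SE 0.10, edgeR adjusted p = 1.5e-05) and POLQ (-0.53, SE 0.08, edgeR adjusted p = 1.5e-05), among 4 lower and 1 higher in the interaction (9.53 and 7.32% of all genes). Between the lines 2 were higher and 4 lower in labelled DMSO (19.6 and 20.4% of all genes), and 2 higher in labelled prexasertib (14.5%).

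Of 17 partners in fork reversal and protection, 8 were higher and 6 lower in parent cells, with a median of 0.00 (18.2% of all genes higher and 18.2% lower). In knockout cells 1 was higher (EXO1, the resection exonuclease), with a median of 0.07 and 6.11% of all genes higher. RPA1, the large subunit of RPA, averaged 75.5 and 127 CPM in parent and 125 and 132 CPM in knockout cells, and its interaction was 0.68 (SE 0.08, edgeR adjusted p = 5.3e-07). RFWD3, a ubiquitin ligase of RPA, averaged 282 and 177 CPM in parent and 185 and 186 CPM in knockout cells, with an interaction of -0.67 (SE 0.06, edgeR adjusted p = 1.8e-08). The interaction was higher for 5 and lower for 6 of the 17 (7.32 and 9.53% of all genes). Between the lines 7 were higher and 6 lower in labelled DMSO (19.6 and 20.4% of all genes), and 6 higher in labelled prexasertib (14.5%).

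Of 9 other SNF2 family genes of repair, 3 were higher (RAD54L, SHPRH and HELLS) and ERCC6 was lower in parent cells, and 3 were higher (RAD54B, SHPRH and RAD54L) in knockout cells, with medians of -0.02 and 0.13. Of all genes, 18.2% were higher and 18.2% lower in parent cells, and 6.11% higher in knockout cells. ERCC6, the translocase of transcription-coupled repair, gave -0.46 (SE 0.07, edgeR adjusted p = 7.0e-06) in parent cells. Of the BLM partners, TOP3A and RMI1 could be tested, and RMI2 did not pass the filter on low counts. TOP3A was higher in labelled prexasertib in knockout cells (0.29, SE 0.05, edgeR adjusted p = 1.8e-04) and not called in parent cells (0.06, SE 0.05, edgeR adjusted p = 0.34), with an interaction of -0.23 (SE 0.07, edgeR adjusted p = 0.026). Of all genes, 6.11% were called higher in knockout cells and 9.53% lower for the interaction.

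Some counts in these lists moved by over 1.5 times with 1 library left out. Without parent labelled prexasertib, replicate 1, the genes higher in knockout cells were 5 of the replicative helicase, 5 of the other helicases, 6 of the fork partners and 5 of the SNF2 genes. Without it, 3 replicative helicase genes were also lower in the knockout in labelled prexasertib, and 3 were higher for the interaction. Replicative helicase genes higher in knockout cells were 1 without parent labelled DMSO replicate 3, any 1 of the knockout libraries labelled DMSO, or knockout labelled prexasertib replicate 1. SNF2 genes higher in parent cells were 1 without parent labelled DMSO replicate 2 or 3 or knockout labelled DMSO replicate 1. Fork partners higher between the lines in labelled prexasertib were 3 without knockout labelled prexasertib replicate 3, and those higher for the interaction were 3 without knockout labelled DMSO replicate 1 or 2. Other helicases lower for the interaction were 7 without parent labelled DMSO replicate 2. The interaction of TOP3A was not called without parent labelled DMSO replicate 3, knockout labelled DMSO replicate 3 or knockout labelled prexasertib replicate 1. In parent cells, counts of 1 ranged from 0 to 2 for the other helicases higher, and from 1 to 2 for the replicative helicase and SNF2 genes lower. The count of 1 for other helicases lower in knockout cells ranged from 0 to 2, and that of other helicases higher for the interaction from 0 to 1. On TPM values the parent counts were 5 higher and 2 lower for the other helicases and 8 and 3 for the fork partners.

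On intronic reads, tested for 19852 genes, 5 of 10 members were called in parent cells in either direction, as were 30.8% of all genes: SMARCAL1, BLM and WRN were higher and PIF1 and HELB lower. In knockout cells 1 of 10 was called, PIF1, with 12% of all genes. Between the lines in labelled DMSO 5 were called, with 30.3% of all genes: SMARCAL1 and BLM were higher and HELB, PIF1 and HLTF lower in the knockout. In labelled prexasertib 1 was called, HELB, with 18.8% of all genes. The interaction called 2, SMARCAL1 and BLM, with 9.84% of all genes. PIF1 was lower in labelled prexasertib in both lines on both kinds of read, and HELB was lower in knockout cells under both labels on both. The intronic line difference of PIF1 in labelled DMSO was -0.51 (SE 0.17, edgeR adjusted p = 0.034), lost without parent labelled DMSO replicate 2 (-0.46) or 3 (-0.47), without any 1 of the knockout libraries labelled DMSO (-0.50 to -0.52), and with the replicate number as a block (-0.51, adjusted p = 0.055). Without parent labelled prexasertib, replicate 1, a library outside this comparison, it was -0.51 (edgeR adjusted p = 6.0e-08). In labelled prexasertib the introns of PIF1 differed by -0.21 (SE 0.20, edgeR adjusted p = 0.52), and by -0.48 (adjusted p = 4.7e-04) without parent labelled prexasertib, replicate 1.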

How the data were processed

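RNA of 12 libraries, 3 in each of 4 groups, was analysed from tables that the authors deposited per library. Exonic and intronic read counts per gene are deposited counts, per the file headers, and TPM values (length-scaled abundance) are those the authors computed, per the file headers. The submitters' processing notes name hg19, STAR 2.5.4a, Picard 2.9.2, Trimmomatic 0.39 and Trim Galore 0.6.2, without roles. The counter, annotation and strand setting are not given in the sources used here, so a gene's reads cannot be told apart from those of an antisense gene. Reads in regions shared by genes were counted for each gene, and a read that spans an exon and an intron counts in both. Large counts are kept to 6 digits, and genes not listed in a library were taken as 0. Of 44183 features, 36 were Y-linked copies of pseudoautosomal genes and were dropped. Starts and ends were raised by 1, since all 37 mitochondrial genes lay 1 below the reference.

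edgeR 4.0.16 in R 4.3.3 was run on the counts (filterByExpr with a minimum count of 10, TMM factors, 1 model of 4 group means, robust quasi-likelihood F test, Benjamini-Hochberg adjustment over all genes tested). Alternatives used DESeq2 1.42.0, limma 3.58.1 on log2(TPM + 1), other scaling, filters, reads and samples. Counts were simulated with changes of 1.25, 1.5, 2 and 4-fold in a small set of genes of higher count, in a single group. The percentages are shares of those altered genes. For parent cells the exonic test recovered 30, 72, 90 and 96% (22549 genes tested, 5 of 149 calls false). For knockout cells it recovered 38, 74, 94 and 100% (22551 genes, 7 of 160 calls false). For the interaction it recovered 12, 68, 72 and 98% (22545 genes, 7 of 132 calls false). For the lines it recovered 40, 72, 98 and 100% in labelled DMSO (22556 genes, 14 of 169 calls false). In labelled prexasertib it recovered 28, 74, 90 and 98% (22521 genes, 14 of 159 calls false). On introns, changes of 1.25-fold were recovered for 22% in parent cells, 18% in knockout cells and 2% for the interaction. Those of 1.5-fold were recovered for 74, 74 and 32%. For the lines the intronic shares were 20 and 62% in labelled DMSO and 18 and 62% in labelled prexasertib. Far more genes were called in the deposited data, so these shares need not carry over to them.

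Libraries of a group differed by more than sampling noise, with chi-square per degree of freedom of 4.43 to 14.6, and of 36.1 and 30.8 for the 2 pairs that hold parent labelled prexasertib, replicate 1. Members and gene lists were chosen with earlier results of these data known. The rule for named genes took all members, the 2 of each other list with the smallest p in each exonic comparison, the 5 genes most like each of the 2 members with the largest SD of group means, and SLFN11; not all of them are printed. Others were named after their values were seen, where a count is spelled out.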

Additional observations from a re-analysis of the deposited data

Results flagged for a closer look

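For 4 results on the members, the effect of labelled prexasertib differed between the lines by the test of the difference itself (the effect in parent less that in knockout cells, edgeR's quasi-likelihood test, p adjusted over all genes). They were the exonic reads of ZRANB3 (-0.52 on the log2 scale, adjusted p = 2.3e-04) and of PIF1 (-0.27, adjusted p = 0.023), and the intronic reads of SMARCAL1 (0.79, adjusted p = 0.013) and of BLM (0.32, adjusted p = 0.049). All 4 would change sign were the library names correct. The ZRANB3 call was lost with intronic reads added (-0.11, edgeR adjusted p = 0.46) and on TPM values (-0.30, limma adjusted p = 0.064). The PIF1 call was lost in some fits that left out a library and on TPM values, and the BLM call in most such fits.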

How the results depend on the processing

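With DESeq2, RLE size factors or no filter on low counts, the number of members called on exonic reads was as in the report in all 5 comparisons. With TPM values, members called were 2 lower in parent cells, 1 lower in knockout cells, 6 higher in the knockout in labelled DMSO, 5 higher in labelled prexasertib, and 1 higher and 0 lower for the interaction. Directions of members not called in the report turned on TPM: RECQL to 0.09 in parent cells, ZRANB3 to 0.13, HLTF to 0.16 and RECQL5 to 0.17 (called, limma adjusted p = 0.049) between the lines in labelled DMSO, HLTF to 0.05 and RECQL4 to 0.08 in labelled prexasertib, and HLTF to 0.10, BLM to 0.08, RECQL to 0.00 and RECQL5 to 0.02 for the interaction. With intronic reads added, HLTF turned to -0.03 in parent cells, ZRANB3 to -0.00 in knockout cells, SMARCAL1 to -0.10 between the lines in labelled prexasertib and BLM to 0.03 for the interaction, and members called fell to 1 lower in knockout cells, 1 higher between the lines in labelled prexasertib and 1 lower for the interaction. With reads outside other genes, 4 members were lower in the knockout in labelled DMSO. Fits to only the 2 groups compared called 2 members higher and 4878 genes in all, against 2982, in knockout cells, and 5 members higher between the lines in labelled DMSO. For intronic reads between the lines in labelled prexasertib, 2 members were lower with RLE size factors and 3 without a filter. The cause of these changes was not tested.

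With 1 library left out, called genes in all ranged from 1905 to 4543 in knockout cells, and on introns from 1420 to 4369 in knockout cells and from 1226 to 2923 for the interaction. Members higher ranged from 1 to 3 in parent cells and from 1 to 3 between the lines in labelled DMSO, and members lower from 1 to 2 in knockout cells and for the interaction. On introns, members higher ranged from 0 to 1 in knockout cells, from 0 to 3 between the lines in labelled DMSO and from 1 to 2 for the interaction, and members lower from 1 to 3 between the lines in labelled prexasertib. Values of uncalled members crossed 0: SMARCAL1 (-0.01 to 0.11) and HLTF (-0.03 to 0.09) in parent cells, HLTF for the interaction (-0.08 to 0.04), RECQL4 (-0.12 to 0.02) and RECQL5 (-0.02 to 0.13) between the lines in labelled prexasertib, and the introns of RECQL4 in parent cells (-0.05 to 0.32). The treatment difference of PIF1 in exons stayed between -2.72 and -2.30 in parent and between -2.44 and -2.14 in knockout cells under all alternatives that keep the attachment of the files.

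Files assigned by library name gave, for parent cells, SMARCAL1 -0.06, ZRANB3 0.41, HLTF -0.03, PIF1 2.66, BLM and WRN -0.19, RECQL 0.05, RECQL4 -0.36, RECQL5 0.34, HELB 0.32, HELQ 0.95, POLQ 0.42, MCM3 -0.31, GINS2 -0.33, ERCC6 0.46, RAD54L -0.32, RFWD3 0.67 and RPA1 -0.75. For knockout cells they gave SMARCAL1 0.05, ZRANB3 -0.11, HLTF -0.05, PIF1 2.39, BLM -0.23, WRN and RECQL -0.08, RECQL4 -0.13, RECQL5 0.23, HELB 0.17, TOP3A -0.29, DNA2 and ASCC3 -0.27, GINS1 -0.22, MCM3 -0.16, RAD54B -0.30, SHPRH -0.23 and EXO1 -0.26, with 2 members higher and 1 lower. For the interaction they gave SMARCAL1 -0.11, ZRANB3 0.52, HLTF 0.02, PIF1 0.27, BLM 0.04, WRN -0.12, RECQL 0.12, RECQL4 -0.22, RECQL5 0.11, HELB 0.16, TOP3A 0.23, HELQ 0.69, POLQ 0.53, GINS3 0.38, GINS2 -0.28, RAD54B 0.42, ERCC6 0.34, RFWD3 0.67 and RPA1 -0.68, with 2 members higher and 0 lower. Between the lines, ZRANB3 was 0.42, RECQL4 -0.07, RECQL5 0.04 and RFWD3 0.07 in DMSO, and ZRANB3 -0.11, RECQL4 0.15, RECQL5 -0.06 and RAD54B -0.08 in prexasertib.

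The labels do not say whether replicate numbers pair the libraries. Deviations of same-numbered libraries correlated at 0.12, 0.023 and 0.053 in parent and -0.02, 0.022 and -0.04 in knockout cells. Those of differently numbered libraries correlated at -0.094 to 0.038 in parent and -0.031 to 0.047 in knockout cells. Deviations from a mean of 3 libraries are tied to each other, so these values cannot decide whether the libraries are paired. With a replicate block, 3 members were higher and 4 lower in parent cells, 1 and 2 in knockout cells, and on introns 1 was higher in knockout cells and 3 lower between the lines in labelled prexasertib. Precision was limited by 3 libraries per group.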
